A study of Mus musculus with 57 samples.

Results

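Gene expression in the prefrontal cortex (PFC) was compared between mice that drank much ethanol and mice that drank little. The comparison used 17 of the 57 arrays of the series, 11 from high drinkers and 6 from low drinkers. An array belonged to it when its title named PFC and its mouse was a high or a low drinker. High meant an average intake over 7 g/kg/18 h and low one under 2 g/kg/18 h. Intake came from the study's plot of intake per mouse, which the sample labels do not repeat. The replicate number in a title was taken as the mouse number of that plot, which the labels do not state. High drinkers were mice 1, 2, 4, 7, 8, 12, 13, 15, 17, 19 and 20, low drinkers were mice 5, 9, 11, 14, 16 and 18, and mice 3 and 10 were left out of the 19 PFC arrays. No expression value was used to choose a mouse.

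All mice were male C57BL/6NCrl, an inbred strain, so the groups carried the same genotype and had the same access to ethanol. Each had a bottle of 10% (w/v) ethanol and a bottle of water for 18 h a day in rounds of 4 sessions with 4 days without ethanol between them, 16 sessions in all, and tissue was taken 6 days after the last one. There was no group without ethanol, so a difference before drinking and a difference brought about by drinking cannot be told apart. RNA from 1 mouse and region went on 1 Mouse Genome 430A 2.0 array, on which several short oligonucleotides (a probeset) measure each transcript. The values are RMA signals on the log2 scale, on which a difference of 1 is a doubling.

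The prefrontal cortex receives dopamine input from the ventral midbrain and sends glutamate-releasing projections to the nucleus accumbens and midbrain. Ethanol acts on several receptors of cortical neurons and is best known for inhibiting NMDA-type glutamate receptors and enhancing GABA-A receptors. NMDA receptors are built from subunits of different genes, and the scaffold protein PSD-95, the product of *Dlg4*, holds them at the postsynaptic membrane.

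The arrays matched their labelled tissue. *Tbr1* and *Neurod6*, which mark cortical excitatory neurons, had mean signals of 7.85 and 8.56 in PFC against 3.02 and 3.85 in the ventral midbrain (VMB), and the dopamine transporter gene *Slc6a3* had 3.92 against 9.03, gaps far wider than those between the overall levels of the regions. The array of mouse 20 is titled PFC but labelled as ventral tegmental area in other fields, and it read 7.85 for *Tbr1* and 4.02 for *Slc6a3*, so it was kept as PFC. Over 136 pairs of the compared arrays r across probesets lay between 0.9901 and 0.9964. The array of mouse 14, a low drinker, stood apart with the lowest median r (0.992) and an extreme score on the first principal component, which carried 16.1% of the variance. For the main probeset of a gene described below, the value without mouse 14 or 20 is given where p crossed 0.05, unadjusted. It is also given where leaving out mouse 14 moved that difference by over 1.5 times. The labels name no processing batch.

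After adjustment no transcript passed the threshold between high and low drinkers. Of 19815 probesets tested with limma, 0 (0%) had an adjusted p under 0.01, and the smallest adjusted p was 0.999. A rank sum test also gave 0. At an unadjusted p under 0.05, 430 probesets (2.17%) were higher and 316 (1.59%) lower in high drinkers, 746 together where 991 would lie under that limit if p were uniform. Leaving out mouse 18, a low drinker, gave 636 higher and 732 lower, and leaving out mouse 14 gave 295 and 225, each with 0 adjusted calls. The differences were small. Apart from the outermost probesets at either end (percentiles 1 and 99) they lay between -0.18 and 0.19, and the median SE was 0.067, so the 95% interval of a typical probeset reached 0.14 to either side of its estimate.

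The direction of the differences followed the signal level. Among 4856 probesets with a mean signal under 4.5, 61.6% were higher in high drinkers and the median difference was 0.02. Among the 4157 over 8, 42.6% were higher and the median was -0.01. The 430 probesets on the higher side had a median signal of 4.66, and the 316 on the lower side had one of 6.23. Mice 11 and 14, low drinkers, had the lowest readings in dim probesets, with a median 0.089 below the middle array for mouse 11 and 0.077 below it for mouse 14. After quantile normalization of the 17 arrays the median difference was 0.00 in each level class, and the split was 338 higher against 367 lower. That method gives every array the same distribution of values. Medians near 0 at each level therefore follow largely from the method and do not test where the lean came from. The part of the scaling in any single dim transcript was not tested.

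**Figure D1:**
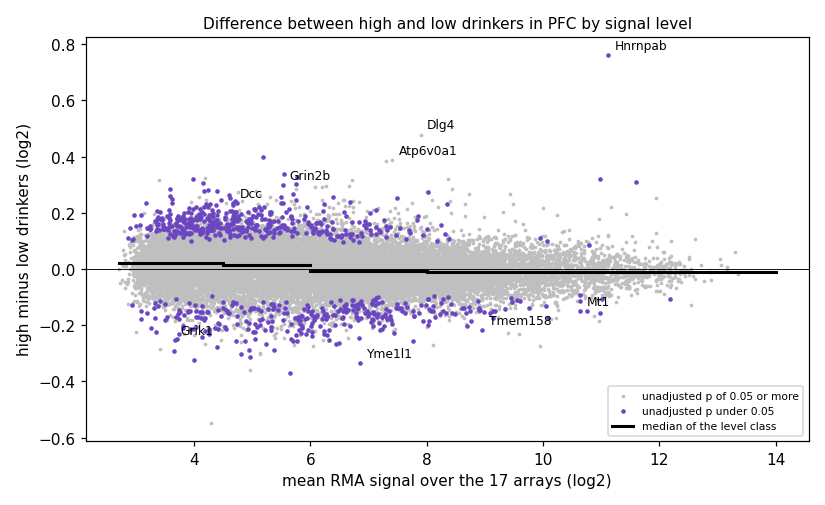
Difference between high and low drinkers (log2, vertical axis) against the mean RMA signal over the 17 arrays (log2, horizontal axis) for 19815 probesets, with those at an unadjusted p under 0.05 in purple. The black bars give the median of each level class, 0.02 under 4.5 and -0.01 over 8, and the purple points above 0 crowd at low signal.

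*Dcc*, the netrin-1 receptor that guides growing axons, was the transcript that best separated the groups. Its probeset (1422162_at) read between 4.34 and 4.63 in the low drinkers with a median of 4.54, and between 4.64 and 4.90 in the high drinkers with a median of 4.74. Every high drinker was above every low drinker, which held for 1 probeset in all (0.00505% of those tested), and the gap between the nearest mice was 0.01. The difference of 0.24 (SE 0.053) had an exact permutation p of 8.08e-05 over 12376 splits, two-sided, the smallest these can give, and an adjusted p of 0.999. The probeset was picked for its separation, so the exact p restates that separation and adds no support. The whole signal lay near 4.5, the level below which probesets were left out, and the difference was 0.23 without mouse 14 and 0.24 without mouse 20.

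The 10 genes leading the higher side included receptors, enzymes and immune genes, and 9 of them had a mean signal under 6. They were ranked on this difference, so their p-values describe the ranking and add no support. *Rhbdf1*, which encodes the inactive rhomboid iRhom1, read 5.71 to 5.93 in low drinkers (median 5.77) and 5.74 to 6.11 in high drinkers (median 5.99). Its difference was 0.19 (SE 0.055), and 7 of the 11 high drinkers were above all low drinkers while the others overlapped with them.

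*Ubox5*, a U-box ubiquitin ligase gene, read 5.41 to 5.74 (median 5.50) in low drinkers and 5.52 to 5.94 (median 5.73) in high drinkers, a difference of 0.19. *Slc20a2*, which encodes a sodium-dependent phosphate transporter, was the brightest of the 10 at 6.76 to 7.01 (median 6.90) against 6.86 to 7.20 (median 7.07), and 9 high drinkers lay above all low drinkers. Both pairs of groups overlapped.

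The immune genes among them were *Csf3r*, the receptor for granulocyte colony-stimulating factor, *Ctsw*, a protease of cytotoxic lymphocytes, and *Irgm2*, an interferon-induced GTPase. Their differences were 0.21, 0.20 and 0.24, and their mean signals in high drinkers were 5.12, 4.78 and 4.78. *Ctsw* read 4.47 to 4.67 in low drinkers and 4.65 to 5.08 in high drinkers. The kinase gene *Srpk3* (0.17), the vomeronasal receptor gene *Vmn1r65* (0.26) and *Grin2b* complete the 10. Across them the exact permutation p ran from 8.08e-05 to 0.0120. *Vmn1r65* reached a group mean of 4.5 in the high drinkers alone (4.69 against 4.42).

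The 10 genes leading the lower side were brighter, with a median signal of 6.33 against 5.18. They too were ranked on this difference, so their p-values, exact ones included, add no support. *Tmem158*, a membrane protein gene first known as a Ras target, led these 10 genes. Its brightest probeset (1428074_at) read 9.01 to 9.35 in low drinkers (median 9.06) and 8.76 to 9.01 in high drinkers (median 8.87). The ranges met at one point, 10 of 11 high drinkers lying below all low drinkers, and the difference was -0.22 (SE 0.057, exact permutation p = 0.000242, adjusted p = 0.999). Mouse 14 gave the highest value, and without it the difference was -0.17. The other 2 probesets of *Tmem158* gave 0.02 and 0.01.

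*Hnrnpa1*, an abundant RNA-binding protein of splicing, read 6.26 to 6.54 (median 6.36) in low drinkers and 5.76 to 6.34 (median 6.19) in high drinkers on the probeset 1436549_a_at, a difference of -0.23 (SE 0.071). A second, brighter probeset (1455305_x_at), which can also match related genes, gave -0.12 with 5 high drinkers below all low drinkers. *Alyref*, an adaptor that loads mRNA for export, differed by -0.20, and *Eif5b*, which joins the ribosomal subunits at the start of translation, by -0.25. *Snhg5*, a non-coding host gene of small nucleolar RNAs, read 5.86 to 6.05 in low drinkers and 5.36 to 5.96 in high drinkers, with 9 high drinkers below all low drinkers (difference -0.23, SE 0.071). *Gas5*, the host gene looked at for its similar role after its values were seen, gave -0.31 and -0.21 on its dimmer probesets and -0.10 and -0.07 on its 2 bright ones.

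The remaining lower genes had varied roles. *Yme1l1*, a protease of the inner mitochondrial membrane, had the largest difference at -0.33 (SE 0.095), with 6.77 to 7.32 in low drinkers (median 7.13) and 6.43 to 7.05 in high drinkers (median 6.73). Its other probesets gave 0.10 and -0.02, so the difference was not shared by all measurements of the gene. *Rasgrp2*, an activator of the small GTPase Rap1, differed by -0.22, *Galnt11*, which starts O-linked glycosylation, by -0.20 and the secreted protein gene *Wfdc1* by -0.24. *Rock1*, a kinase that acts on the actin cytoskeleton, gave -0.20 on the probeset 1450994_at and -0.10, 0.11 and 0.05 on its others.

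**Figure D2:**
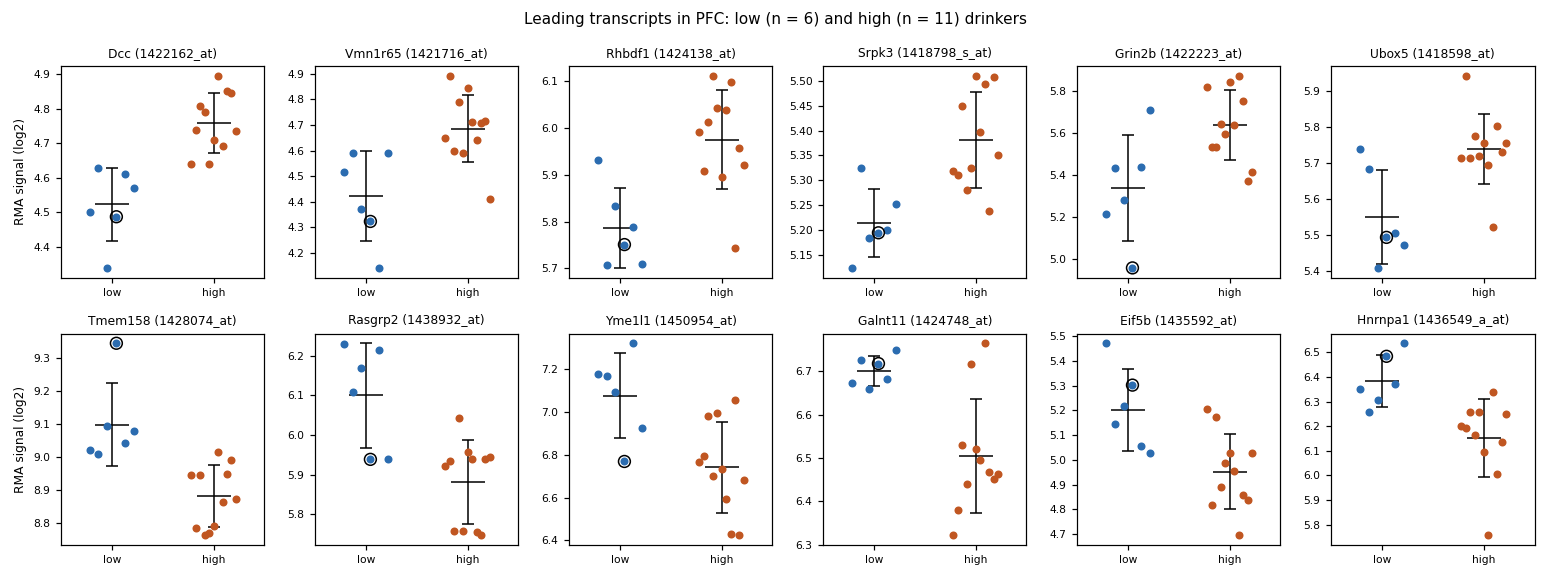
RMA signal (log2) of 12 leading transcripts on each PFC array, 6 higher in high drinkers (upper row) and 6 lower (lower row), with low drinkers in blue and high drinkers in orange. Bars give mean ± SD and the circle marks mouse 14, and the groups are apart for *Dcc* alone, with all 6 low drinkers at or under 4.63.

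The glutamate network that the study draws for PFC was measured by 9 probesets of 6 genes, chosen by the study on these samples. *Grin2b*, which encodes the GluN2B subunit of NMDA receptors, read 4.96 to 5.71 in low drinkers (median 5.36) and 5.37 to 5.87 in high drinkers (median 5.64) on the probeset 1422223_at. The difference was 0.30 (SE 0.093, unadjusted p = 0.00416, adjusted p = 0.999), with 4 of 11 high drinkers above all low drinkers. Mouse 14 had the lowest value, and without it the difference was 0.22. The second, dim *Grin2b* probeset (1431700_at) gave -0.02.

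*Grik1*, a kainate receptor subunit gene, had the opposite sign. It read 3.62 to 3.98 in low drinkers (median 3.85) and 3.19 to 3.81 in high drinkers (median 3.66), a difference of -0.25 (SE 0.084, exact permutation p = 0.0127) at a level below 4.5 on all these arrays. *Grin3b*, the gene of the GluN3B subunit, was as dim and gave -0.09, or -0.13 (p = 0.0392) without mouse 14. *Htt*, whose product huntingtin supports vesicle transport, read 6.35 to 6.56 against 6.50 to 6.68, a difference of 0.10 (SE 0.046, p = 0.0454). It was 0.07 (p = 0.147) without mouse 14 and 0.09 (p = 0.0675) without mouse 20. *Th*, the rate-limiting enzyme gene of dopamine synthesis, lay at 4.28 to 4.55 against 4.29 to 4.71, a difference of 0.10 that was 0.06 without mouse 14, the lowest low drinker.

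*Dlg4* gave no single direction. Its probesets 1419580_at and 1419581_at differed by 0.32 and 0.48, and 1460261_at by -0.17. On 1419581_at the low drinkers read 5.82 to 8.10 with a median of 7.91 and the high drinkers 7.07 to 8.84 with a median of 8.18. The lowest reading on each of the first pair was that of mouse 14, and without that mouse they gave 0.15 and 0.13, and the third -0.22 (p = 0.0249). Without mouse 20 the first gave 0.39 (p = 0.0332) and the third -0.19 (p = 0.0459). The exact permutation p of the 3 probesets ran from 0.101 to 0.179 with all mice.

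The largest difference of any named gene rested on the same mouse. *Hnrnpab*, an RNA-binding protein gene, gave 0.76 (SE 0.356) on the probeset 1426114_at, where low drinkers read 8.33 to 11.65 (median 11.08) and high drinkers 10.36 to 12.08 (median 11.45). Mouse 14 had the 8.33, and without it the difference was 0.30. The unadjusted p was 0.0445 with all mice, 0.220 without mouse 14 and 0.0550 without mouse 20. The other 5 *Hnrnpab* probesets gave -0.07 to 0.05. The proton pump subunit gene *Atp6v0a1*, looked at after its values were seen, showed 0.39 on 1425227_a_at and 0.09 without mouse 14. Its brightest probeset gave 0.04, another bright one (1460650_at), on which mouse 14 was also the lowest, 0.19 or 0.08 without that mouse, and the dimmest -0.03.

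**Figure D3:**
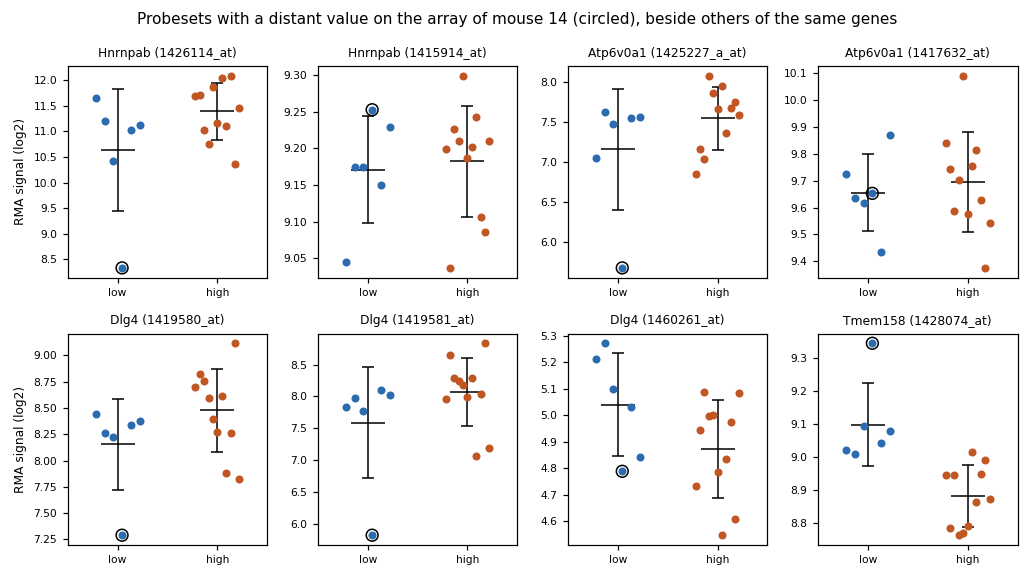
RMA signal (log2) of 8 probesets in low (blue, 6 mice) and high (orange, 11 mice) drinkers with mean ± SD, mouse 14 circled. Mouse 14 lies far below the other low drinkers for *Hnrnpab* 1426114_at (8.33), *Atp6v0a1* 1425227_a_at (5.68) and *Dlg4* 1419581_at (5.82), and within the range of the high drinkers for the *Hnrnpab* and *Atp6v0a1* probesets beside these.

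Gene lists were described with the brightest probeset of each gene. Over all 11342 genes, 51.2% were higher in high drinkers, the median difference was 0.00, 1.97% were higher at an unadjusted p under 0.05 and 1.39% were lower. A list's count is read against these shares. List members were named for a small p, so the p-values given for them, exact ones included, add no support. In bulk tissue, fewer cells of a type and less RNA per cell cannot be told apart.

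Of 15 glutamate receptor genes measured, 9 were higher and 6 lower, the median was 0.01, and *Grin2b* and *Grik1* were the members at an unadjusted p under 0.05. *Grin2a*, the gene of another NMDA receptor subunit, gave 0.20 (p = 0.115). Among 18 postsynaptic scaffold genes 1 passed that limit, *Htt*. None of 14 genes of GABA receptors and synthesis passed it, the smallest p being that of the GABA-producing enzyme gene *Gad2* (0.15, p = 0.124), which gave 0.05 without mouse 14. The 38 synaptic vesicle genes had a median of 0.01 and 0 members under the limit, and the 2 with the smallest p, *Sh3gl1* and *Snap91* of endocytosis, gave -0.10 and 0.07. *Sh3gl1* gave -0.13 (p = 0.0389) without mouse 14.

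Neuropeptide and peptide receptor genes held the most members under the limit. Of 35 measured, 21 were higher and 14 lower, and 6 were higher at an unadjusted p under 0.05 with 0 lower. These were the µ-opioid receptor gene *Oprm1* (0.16), the neuropeptide Y receptor gene *Npy2r* (0.15), the neurokinin receptor gene *Tacr3* (0.18), the peptide genes *Gal* (0.14) and *Nmu* (0.19), and the VIP receptor gene *Vipr1* (0.21). *Oprm1* read 3.69 to 3.97 in low drinkers (median 3.84) and 3.84 to 4.14 in high drinkers (median 4.02), with 7 high drinkers above all low drinkers. *Gal*, which encodes galanin, read 4.80 to 5.25 against 4.97 to 5.17. All 6 had mean signals at or under 5.1, among dim probesets whose median was higher in high drinkers. Of all genes with a mean under 4.5, 103 of 2562 were higher under the limit. At 4.5 to 6 it was 76 of 2398, so dim genes passed it more often than the 1.97% of all genes. Without mouse 14 only 3 members were under the limit, *Oprm1*, *Npy2r* and *Gal*, and *Tacr3* gave 0.15 (p = 0.0588). The abundant peptide genes *Sst*, *Npy*, *Cck* and *Vip* gave -0.12, -0.05, -0.07 and -0.02.

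Monoamine genes were mostly above 0. Of 14 catecholamine genes, 5 with a mean under 4.5, 12 were higher with a median of 0.05. Without mouse 14 10 were higher and 0 under the limit. *Slc6a3* was the member under the limit at 0.13 (p = 0.0485), and its p was 0.105 without mouse 14 and 0.0696 without mouse 20. Its values of 3.72 to 4.24 were under 4.5 in every mouse. Of 13 serotonin receptor genes 9 were higher and 10 had a mean under 4.5. *Htr3b*, a subunit of the serotonin-gated channel, read 3.51 to 3.89 in low drinkers and 3.71 to 3.99 in high drinkers (0.15, exact permutation p = 0.0138). Genes under 4.5 as a whole were higher in 64.2% of cases.

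Genes of the respiratory chain and ATP synthase, which make ATP in mitochondria, leaned the other way. Of 71 measured, 56 were lower and 15 higher in high drinkers, with a median of -0.04 and 0 at an unadjusted p under 0.05. The complex I subunit genes *Ndufc1* and *Ndufa5* gave -0.15 (SE 0.071, p = 0.0503) and -0.14 (SE 0.073, p = 0.0679). *Ndufc1* read 10.11 to 10.54 in low drinkers (median 10.37) and 9.99 to 10.45 in high drinkers (median 10.23). The list's mean signal per array was 10.39 to 10.60 in low drinkers and 10.41 to 10.57 in high drinkers, and the ranges overlapped almost wholly. All genes with a mean signal over 8 had a median of -0.01 and 43.5% higher. The 9 ubiquinone biosynthesis genes had a median of -0.01.

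Splicing factor genes were also mostly on the lower side, with 25 of 34 lower and a median of -0.03. *Hnrnpa1* and *Hnrnpab* were the members under the limit, in opposite directions. Of 23 genes of histone deacetylases and corepressors, 13 were lower. *Hdac2*, a class I deacetylase gene, read 6.68 to 7.36 in low drinkers (median 7.01) and 6.47 to 7.02 in high drinkers (median 6.74), a difference of -0.25 (SE 0.098, exact permutation p = 0.0379) that was -0.17 without mouse 14. *Sin3a*, the scaffold of a corepressor complex, gave 0.10 (p = 0.0481), with a p of 0.114 without mouse 14 and 0.0767 without mouse 20. *Hdac2* had a p of 0.0811 without mouse 14.

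*Mt1* and *Mt2*, the metallothionein genes, bind zinc and copper and are induced by metals and glucocorticoids, and both were lower in high drinkers. They were the 2 members under the limit among 20 genes of the glucocorticoid list, of which 12 were lower. *Mt1* read 10.58 to 10.90 in low drinkers (median 10.77) and 10.46 to 10.75 in high drinkers (median 10.60) on its bright probeset 1422557_s_at. The difference was -0.15 (SE 0.057, exact permutation p = 0.0143), and 5 of 11 high drinkers were below all low drinkers. *Mt2* read 10.00 to 10.36 (median 10.23) against 9.81 to 10.26 (median 10.05), a difference of -0.17 (SE 0.068, exact permutation p = 0.0261).

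Each pair of groups overlapped, and the adjusted p was 0.999. A dim second *Mt1* probeset (1451612_at) gave 0.08. *Fkbp5* and *Sgk1*, other glucocorticoid-induced genes, gave -0.03 each, and *Tsc22d3* gave -0.12 (p = 0.122). Of the 8 members of that list on the higher side, *Dusp1* gave 0.15 (p = 0.116) and *Cdkn1a* 0.10 (p = 0.179). Astrocytes are a main source of metallothionein, and the 12 astrocyte markers had a median of -0.01 with 5 higher. Their mean signal was 8.25 to 8.43 in low drinkers and 8.23 to 8.45 in high drinkers. The part of astrocyte RNA in the *Mt1* and *Mt2* differences was not tested.

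The promoters of the 2 genes are shown because these neighbours were lower together. Each line gives the 250 bases before the RefSeq start in assembly GRCm38.p6, plus strand, with the core of the metal response element (TGCACNC or TGCGCNC, on either strand) in capitals. *Mt1* lies at chr8:94178839-94179088 and *Mt2* at chr8:94172368-94172617.
Mt1: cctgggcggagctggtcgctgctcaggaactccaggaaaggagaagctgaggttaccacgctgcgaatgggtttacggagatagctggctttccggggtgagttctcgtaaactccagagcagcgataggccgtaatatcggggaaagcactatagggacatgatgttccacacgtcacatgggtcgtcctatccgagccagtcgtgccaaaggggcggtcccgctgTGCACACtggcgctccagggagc
Mt2: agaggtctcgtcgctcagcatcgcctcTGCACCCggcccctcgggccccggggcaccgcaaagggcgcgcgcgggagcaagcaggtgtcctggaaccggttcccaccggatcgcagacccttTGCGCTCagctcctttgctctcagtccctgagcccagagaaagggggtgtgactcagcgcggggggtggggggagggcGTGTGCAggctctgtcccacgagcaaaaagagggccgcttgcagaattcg
Within these 250 bases the core occurred 1 time before *Mt1* and 3 times before *Mt2*. Bases past the annotated start were not searched, so the counts need not cover every match near either gene. Of 32851 RefSeq promoters of the same length 21.4% held at least 1 match and 1.26% held 3 or more, and a match is a description of the letters.

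Signalling lists held few members under the limit. *Jak3*, a cytokine receptor kinase gene, gave 0.13 (p = 0.0479, or 0.0649 without mouse 20) among 29 interleukin 2 and JAK/STAT genes, and *Map3k11*, a kinase that activates JNK, 0.16 (p = 0.0197) among 29 stress kinase genes. Among 34 actin genes *Rock1* and *Cfl1*, which encodes the actin-severing protein cofilin, were the members under the limit, and *Cfl1* gave -0.11 (p = 0.0436, or 0.120 without mouse 14 and 0.0683 without mouse 20). *Gfra2*, a receptor for neurturin, gave 0.21 (p = 0.0457) among 9 neurotrophin genes and 0.11 (p = 0.209) without mouse 14, and *Bdnf* gave -0.09 (p = 0.452).

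Several lists had 0 members under the limit. These were 18 retinoic acid genes (median 0.00), 21 immediate early genes (0.00), 14 of ethanol and aldehyde metabolism (-0.02), 6 of the endocannabinoid system (0.02), 20 of the circadian clock (-0.01) and 23 of heat shock proteins and chaperones (0.02). *Arc*, an activity-induced gene, read 5.74 to 6.23 in low drinkers (median 6.09) and 5.86 to 6.96 in high drinkers (median 6.23), a difference of 0.25 (p = 0.0680) that turned to -0.03 with mice 3 and 10 added to the low drinkers. *Clock* gave -0.16 (p = 0.0530), *Aldh1b1* 0.12 (p = 0.107) and *Faah*, the enzyme that breaks down anandamide, 0.09 (p = 0.0966), or 0.06 without mouse 14. Without mouse 14 the immediate early list had 2 members higher under the limit, 1 of them *Nr4a1*, and the heat shock list 1 lower, *Hspa4*. *Nr4a1*, a nuclear receptor gene induced by activity, gave 0.13 with all mice and 0.18 (p = 0.0400) without mouse 14, and its sign turned as that of *Arc* did. *Hspa4*, an HSP70 family chaperone gene, gave -0.12 and -0.15 (p = 0.0338).

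**Figure D4:**
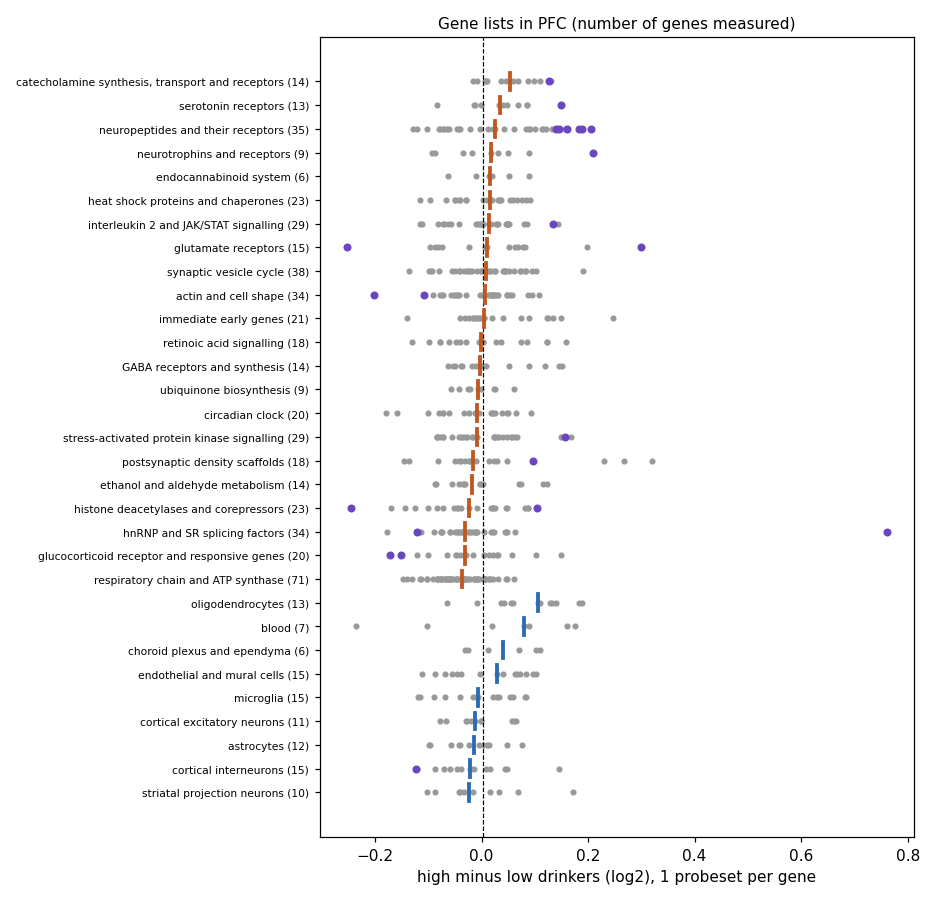
High minus low difference (log2, horizontal axis) of each measured gene in the pathway lists (upper block) and cell type marker lists (lower block), with genes at an unadjusted p under 0.05 in purple, the list's median as a coloured bar and the median of all genes as a dashed line. The lowest pathway median is that of the respiratory chain (-0.04) and the highest marker median that of oligodendrocytes (0.11), and the member points overlap between lists.

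Among the cell type markers the oligodendrocyte genes had the highest median, within the spread of the mice. Of 13 oligodendrocyte markers 11 were higher in high drinkers with a median of 0.11, and 0 were under the limit. *Mbp*, the gene of myelin basic protein, gave 0.13 (p = 0.379) and *Olig1* 0.11 (p = 0.0978). Their mean signal was 7.27 to 7.70 in low drinkers (median 7.29) and 7.08 to 8.13 in high drinkers (median 7.44), and the median difference was 0.06 without mouse 14. Medians were -0.01 for 11 excitatory neuron markers, -0.02 for 15 interneuron, -0.02 for 10 striatal neuron, -0.01 for 15 microglial, 0.03 for 15 endothelial and mural, 0.04 for 6 choroid plexus and 0.08 for 7 blood markers. In each of the choroid plexus and blood lists 5 markers had a mean under 4.5, where genes as a whole leaned higher. Without mouse 14 their medians were 0.02 and 0.04. *Lhx6*, a transcription factor of cortical interneurons, was the marker under the limit with all mice at -0.12 (p = 0.0244, or 0.0504 without mouse 14). The microglial marker *Aif1* gave -0.115 (p = 0.158), or -0.17 (p = 0.0372) without mouse 14. The striatal marker *Pde10a* gave 0.17 (p = 0.0546), or 0.19 (p = 0.0327) without mouse 20 and 0.11 (p = 0.198) without mouse 14. The part of oligodendrocyte RNA in the results above was not tested.

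High minus low differences were set beside those in nucleus accumbens (NAc) of the same 17 mice, matched by replicate number, and in VMB of 16 of them, which had no array of mouse 20. The median signal of an array lay between 5.66 and 5.70 in PFC, between 6.26 and 6.32 in NAc and between 5.79 and 5.86 in VMB. As these ranges did not overlap, differences within a region were compared and not levels. The test of PFC against NAc gave 0 probesets at an adjusted p under 0.01 and 528 (2.66%) at an unadjusted p under 0.05, and that of PFC against VMB gave 0 and 467 (2.36%). The 20 leading genes were chosen for their PFC difference. Of the 10 higher ones 8 were above 0 in NAc and 9 in VMB, and of the 10 lower ones 1 was below 0 in NAc and 7 in VMB. In NAc both sets were thus mostly above 0, whatever their direction in PFC. The share of all probesets above 0 in NAc and VMB was not counted, so these counts are not read as agreement between regions.

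Their own differences in those regions were small against their error, with the smallest unadjusted p at 0.101 in NAc (*Snhg5*, 0.19) and 0.134 in VMB (*Tmem158*, -0.16). *Dcc* gave 0.06 (SE 0.17) in NAc and -0.02 (SE 0.14) in VMB. *Grin2b* gave 0.05 and 0.10. *Mt1* gave -0.02 in NAc and -0.13 in VMB (p = 0.0206), and *Mt2* -0.02 and -0.13. *Htr3b*, which was 0.15 in PFC, was -0.15 in VMB, and the test of that contrast had an unadjusted p of 0.000757 and an adjusted p of 1.

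**Figure D5:**
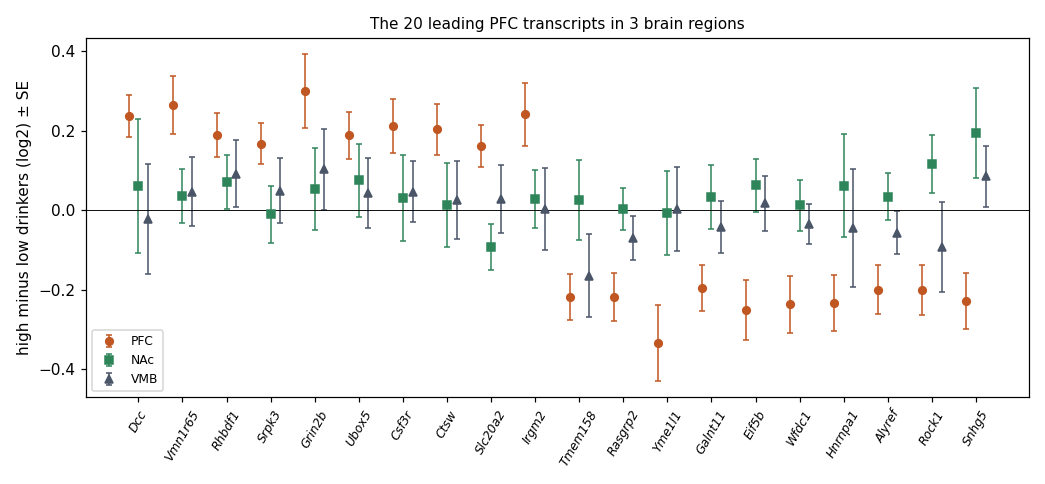
High minus low difference (log2) ± SE of the 20 leading PFC genes in PFC (orange circles, 17 mice), NAc (green squares, the same mice) and VMB (grey triangles, the same mice but mouse 20). PFC differences run from -0.33 to 0.30 by choice of the genes. Most NAc values lie above 0, and some NAc and VMB values lie beyond the length of their error bars, such as *Snhg5* in NAc (0.19, SE 0.113).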

How the data were processed

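The values were the log2 RMA signals that the authors deposited. Per the labels they came from GCOS, which scales each array to one mean intensity, and RMA, which summarizes the probes of a probeset, after arrays past the study's quality limits had been dropped. No normalization was added in the main analysis. Of 22626 probesets in the file, 19815 reached 4.5 on at least 1 array of the series and were tested. Gene symbols came from the platform annotation and were updated through the RefSeq table of GRCm38.p6. 20380 probesets had 1 symbol, 691 several and 1555 none.

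High and low drinkers were compared with limma 3.58.1 in R 4.3.3 (empirical Bayes without trend, Benjamini-Hochberg over all 19815 probesets, threshold 0.01, the study's false discovery rate of 1%). The study itself correlated expression with each mouse's intake, which was not done here. An unadjusted p under 0.05 serves as a description. Mice are separate animals. Exact permutation tests of the difference of means, two-sided, used all 12376 splits of the 17 arrays. Region differences were fitted as contrasts without a block. The same replicate number in the titles was taken as the same mouse in each region. With that number as a block the consensus correlation was 0.0804 for NAc and 0.0243 for VMB. The script was tested on simulated data.

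Named were the 10 genes with the smallest p in each direction (1 symbol, mean of 4.5 or more in a group, no x_at probesets), the 6 genes the study names for PFC, probesets whose groups do not overlap, and for each of 33 lists the members at p under 0.05 (at most 4) or else the 2 with the smallest p. A few genes outside this rule are said to be chosen after their values were seen, or are given as further members of a list. Of 765 list entries 637 were measured. The result of 1 list is not reported here. The members, lists and genes were chosen with earlier results of these data known. Alternatives covered filters, scaling, weights, tests, mice left out and added, and the block. The number of arrays limits the precision.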

Additional observations from a re-analysis of the deposited data

Results flagged for a closer look

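In the group of 6 low drinkers 7 of 84 named probesets had a value far from the other 5 mice, with a gap that took up more of the group's range than Dixon's limit for 6 values. Chance gives about 1 in 20 groups, but these probesets were chosen on their values, that of *Atp6v0a1* after they were seen, and come from the same mice, so the number is not set against it. In 6 of the 7 the distant mouse was mouse 14, whose value was 5.82 for *Dlg4* 1419581_at (group median 7.91), 7.29 for *Dlg4* 1419580_at (8.30), 8.33 for *Hnrnpab* 1426114_at (11.08), 5.68 for *Atp6v0a1* 1425227_a_at (7.51), 9.35 for *Tmem158* 1428074_at (9.06) and 7.25 for the ubiquinone kinase gene *Coq8a* 1417066_at (7.06). The difference of *Coq8a* was -0.06 with mouse 14 and -0.03 without it. The other was mouse 5 for *Gal*, at 5.25 against a median of 4.93.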

How the results depend on the processing

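The count of 0 probesets at an adjusted p under 0.01 was the same under every filter, scaling, weighting and test tried, including an equal-variance t-test and a rank sum test, with mice 3 and 10 added to the low drinkers, and without each mouse in turn. Of 430 higher and 316 lower probesets at an unadjusted p under 0.05, a mean of 4.5 or more left 241 and 269, 1 probeset per gene left 223 and 158 of fewer tested, and a single fit of 3 regions gave 205 and 172 (the cause was not tested). The equal-variance t-test gave 411 and 324. Leaving out 1 mouse gave 295 to 636 higher and 225 to 732 lower (732 without mouse 18). Probesets whose groups did not overlap numbered 2 after quantile normalization and 1 to 8 without 1 mouse (8 without mouse 5 or 9, 7 without mouse 18), fewer mice leaving fewer values to overlap. With the mouse number as a replicate block the region tests gave 651 probesets for NAc and 489 for VMB at an unadjusted p under 0.05, against 528 and 467, and 0 adjusted calls, so the block changed no call. Without mouse 20 in PFC they gave 492 and 415. Of 84 named probesets, signs turned for *Neurod2* (-0.0077 with the first principal component), *Arc* (-0.029) and *Nr4a1* (-0.024) with mice 3 and 10 added, and the dim *Grin2b* probeset (-0.064 to 0.026 without 1 mouse, above 0 at 0.026 without mouse 12 and 0.023 without mouse 16). No other sign of a named probeset turned under the alternatives run. The 33 list medians moved by less than the spread of the low drinkers when all probesets were used or mouse 14 or 20 was left out. That limit was wide enough for signs to turn. Without mouse 14, medians turned for glutamate receptors (0.009 to -0.015), neurotrophins (0.018 to -0.012) and interneurons (-0.021 to 0.004), among others. With all probesets that of striatal neurons turned (-0.024 to 0.0095).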

Other observations

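Some transcripts outside the named genes and lists had large differences and were picked after their values were seen. *Eif2s3y*, a Y-linked translation initiation factor gene of these male mice, read 5.24 to 6.44 in low drinkers (median 5.92) and 5.16 to 6.01 in high drinkers (median 5.52), a difference of -0.37 (SE 0.148, exact permutation p = 0.0457, adjusted p = 0.999). It was -0.25 in NAc and -0.22 in VMB, with unadjusted p of 0.193 and 0.353. Differences over 0.5 in size were found for 2 probesets, that of *Hnrnpab* and one that matches several genes and was not named here.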
